A study of Homo sapiens with 6 samples.

Results

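The 10 core circadian clock genes ARNTL, CLOCK, PER1, PER2, PER3, CRY1, CRY2, NR1D1, NR1D2 and DBP were examined among 58735 genes in 6 RNA sequencing libraries of AsPC-1, a human cell line established from pancreatic cancer. They were chosen by name, with earlier results of these data known, and each symbol matched 1 gene. The Vector group (n = 3, genotype WT) carried an empty lentivirus and the OE-MMP28 group (n = 3) carried a lentivirus with the cDNA of MMP28, a secreted matrix metalloproteinase. Both groups therefore shared the lentiviral infection, and the study describes puromycin selection of its stable lines. The labels do not say whether the 3 libraries of a group came from separate cultures, so p-values measure only the spread between these libraries, which may be technical.

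The circadian clock is a transcriptional feedback loop that runs in most cells with a period of about a day. ARNTL (also called BMAL1) and CLOCK pair on E-boxes in DNA and activate the PER, CRY, NR1D and DBP genes. The PER and CRY proteins then inhibit the pair, and the NR1D proteins (REV-ERB receptors) repress ARNTL through ROR elements, which the ROR receptors activate. In synchronised tissues, transcripts of ARNTL therefore peak at the opposite time of day to those of NR1D1, PER and DBP. Cells in culture drift out of phase, and serum, glucocorticoid, cyclic AMP or temperature changes can bring them into step. In bulk RNA, fewer cells that express a gene and less RNA per cell cannot be told apart.

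The sequences through which these genes are coupled were read from RefSeq promoter windows (build GRCh38.p14, 300 bases each, from 250 before to 50 after an annotated start), which were found for all 10 genes in 15 windows. Motifs were searched on both strands. A member was counted if any of its windows held a match, and some members had more than 1 window. The shares given beside these counts are per window, so the measures are not alike. The E-box CACGTG was found in windows of 2 members (PER1 and NR1D2), against 7.26% of all 35116 windows, and the related sequence CACGTT in those of 5 (CLOCK, PER2, CRY1, CRY2 and NR1D1), against 5.34%. The ROR element, an AT-rich flank followed by GGTCA, was found in ARNTL and CLOCK, against 0.581%, and the D-box TTANGTAA, which DBP binds, in PER2, PER3 and NR1D2, against 2.18%. The short sequence TGACG, one arm of a cyclic AMP response element and left in lower case, was found in 5 members, against 24.55%, and the DBP window held none of these letters. A match describes letters and not a bound site. Of these windows, 5 are shown because they hold both arms of the loop, with the matched letters in capitals, 5′ to 3′ on the gene's strand. For ARNTL they are 30 bases around the ROR element (chr11:13277807-13277836, plus strand), and for CLOCK an ROR element on the opposite strand followed by CACGTT (chr4:55545933-55546182, minus strand). For PER1 they hold the E-box (chr17:8152436-8152654, minus strand), and for PER2 the CACGTT sequence (chr2:238288611-238288860, minus strand). The D-box of PER2 begins at base -3, runs past the end of its stretch and is left in lower case. For NR1D2 a D-box on the opposite strand is followed by 2 E-boxes (chr3:23945871-23946120, plus strand).
ARNTL: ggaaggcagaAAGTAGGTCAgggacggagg
CLOCK: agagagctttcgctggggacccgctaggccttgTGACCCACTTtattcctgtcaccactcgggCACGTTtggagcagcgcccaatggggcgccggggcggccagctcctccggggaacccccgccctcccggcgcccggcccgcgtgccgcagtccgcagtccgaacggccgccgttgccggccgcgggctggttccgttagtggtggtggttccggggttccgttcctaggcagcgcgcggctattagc
PER1: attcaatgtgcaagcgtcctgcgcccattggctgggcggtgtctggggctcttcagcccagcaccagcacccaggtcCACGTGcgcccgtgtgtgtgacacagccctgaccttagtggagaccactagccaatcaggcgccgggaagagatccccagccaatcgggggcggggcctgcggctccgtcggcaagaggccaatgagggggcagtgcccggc
PER2: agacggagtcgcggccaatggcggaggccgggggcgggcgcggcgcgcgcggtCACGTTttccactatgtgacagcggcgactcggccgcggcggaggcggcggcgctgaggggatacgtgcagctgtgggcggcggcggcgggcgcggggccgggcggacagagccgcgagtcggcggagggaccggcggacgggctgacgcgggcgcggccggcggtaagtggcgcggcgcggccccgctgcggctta
NR1D2: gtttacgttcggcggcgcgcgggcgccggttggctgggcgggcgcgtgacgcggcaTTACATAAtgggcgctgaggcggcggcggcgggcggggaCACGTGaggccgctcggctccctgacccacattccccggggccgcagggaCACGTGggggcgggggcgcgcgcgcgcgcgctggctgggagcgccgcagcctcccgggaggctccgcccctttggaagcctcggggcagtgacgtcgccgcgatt

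Total counts per library ranged from 13633249 to 14985715 in the Vector group and from 15568066 to 16691458 in the OE-MMP28 group, and mitochondrial genes took 11.9% to 14.8% and 8.80% to 11.9% of them. MMP28 itself had FPKM values (reads scaled by gene length and library size, as deposited) of 5.17, 9.11 and 8.43 in Vector and 13.1, 13.9 and 15.1 in OE-MMP28. All OE-MMP28 libraries were above all Vector libraries (log2 fold change 0.90, SE 0.19, adjusted p = 0.00226, edgeR). A two-sided exact permutation test of the MMP28 FPKM values gave p = 0.1, the smallest value possible with 3 libraries per group. Epithelial markers such as KRT8, KRT18, KRT19 and EPCAM were abundant, with the 6 markers summing to between 10409 and 18071 CPM (counts scaled to a common library total). KRT7, also among the 6, was low, with 1.23, 1.59 and 0.597 FPKM in Vector and 1.17, 2.03 and 2.22 FPKM in OE-MMP28. Of these 6, KRT19 rose (log2 fold change 0.71, adjusted p = 0.00175) and CDH1 fell (-0.59, adjusted p = 0.0113, 0.0609 without OE-MMP28 replicate 3). Tested against the median of the genes within 5 Mb on either side, CDH1 was at -0.21 (adjusted p = 0.421). The 8 leukocyte and stromal markers summed to between 48 and 74 counts per library, with PTPRC and COL1A2 at 0 or 1 count in every library. Among these 8, PECAM1, an endothelial adhesion molecule, rose from 0, 4 and 4 counts to 13, 21 and 30 (adjusted p = 0.00361).

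All 10 clock genes passed the filter on low counts, and 5 of them differed between the groups at an adjusted p under 0.05 (edgeR's quasi-likelihood test, Benjamini-Hochberg over 15319 genes), where 23.4% of all genes did. CLOCK and CRY1 rose, as did 11.7% of all genes, and PER2, NR1D1 and DBP fell, as did 11.6%. ARNTL, PER1, PER3, CRY2 and NR1D2 did not pass the test. The groups did not overlap in FPKM for 8 of the 10 genes, CRY2 and NR1D2 being the exceptions, whereas they did not overlap for 38.1% of all genes tested. The median absolute log2 fold change was 0.55 over the 10 genes and 0.33 over all genes tested. The share called among the clock genes thus lay above that among all genes, with no test of the difference. Because the 10 genes were chosen with earlier results of these data known, this comparison only describes them.

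**Figure D1:**
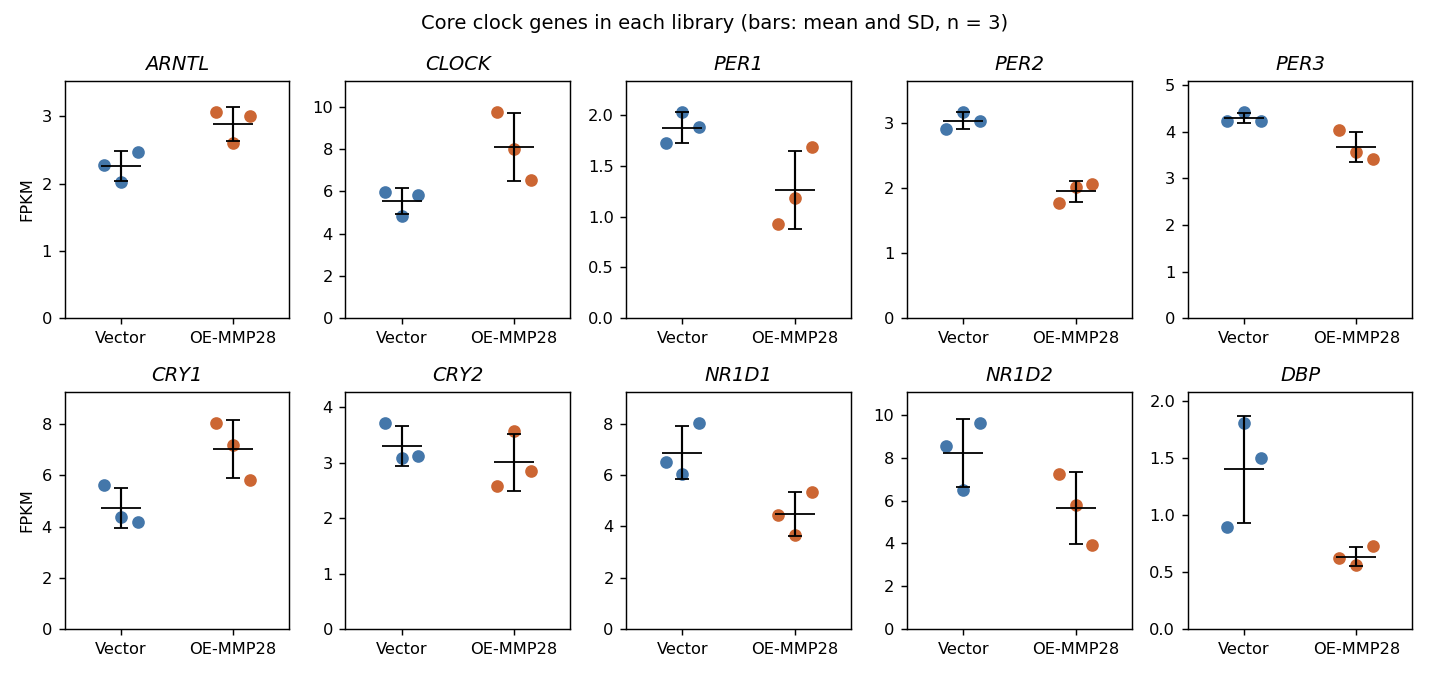
FPKM of the 10 clock genes (vertical axis, from 0) in each Vector and OE-MMP28 library (points), with the mean and SD of 3 libraries (bars). All OE-MMP28 points are above the Vector points for ARNTL, CLOCK and CRY1 and below them for PER1, PER2, PER3, NR1D1 and DBP, and they overlap for CRY2 and NR1D2.

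The activators were examined first. CLOCK (ENSG00000134852, chromosome 4, 55427903 to 55547138, minus strand), a histone acetyltransferase and the partner of BMAL1, had 5.98, 4.82 and 5.81 FPKM in the Vector libraries and 9.75, 7.99 and 6.54 FPKM in the OE-MMP28 libraries. The OE-MMP28 libraries were all higher, with replicate 3 nearest to the Vector group. CLOCK rose 1.47-fold (log2 fold change 0.56, SE 0.16, adjusted p = 0.0184, edgeR). With 5 libraries it was at 0.46 without Vector replicate 2 (adjusted p = 0.0624), 0.39 without OE-MMP28 replicate 1 (adjusted p = 0.0861) and 0.55 without OE-MMP28 replicate 2 (adjusted p = 0.0764), the last a fit that called 985 genes higher against 1795 with all libraries. TMEM165 on the other strand covers 0.646% of its exon length.

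ARNTL (ENSG00000133794, chromosome 11, 13276652 to 13387266, plus strand) encodes BMAL1, the one core component without which the loop is known to stop in mice. It had 2.28, 2.02 and 2.47 FPKM in Vector and 3.06, 2.60 and 3.00 FPKM in OE-MMP28. The groups did not overlap, although the highest Vector library and the lowest OE-MMP28 library were close. The log2 fold change of ARNTL was 0.37 (SE 0.18, adjusted p = 0.143, edgeR), and it did not pass in any of the 18 alternative fits, where the adjusted p ranged from 0.145 to 0.338.

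Among the repressors, the CRY genes differed from each other. CRY1 (ENSG00000008405, chromosome 12, 106991364 to 107093829, minus strand), the cryptochrome whose transcription is also under ROR elements, had 5.63, 4.37 and 4.20 FPKM in Vector and 8.06, 7.19 and 5.81 FPKM in OE-MMP28. Vector replicate 1 lay just under OE-MMP28 replicate 3. CRY1 rose 1.49-fold (log2 fold change 0.58, SE 0.18, adjusted p = 0.0219, edgeR). The adjusted p was between 0.0585 and 0.121 without Vector replicate 2, Vector replicate 3, OE-MMP28 replicate 1 or OE-MMP28 replicate 2, with log2 fold changes from 0.46 to 0.55. The genes around CRY1, taken as those within 5 Mb on either side, had a median log2 fold change of 0.25, and when each gene was tested against such a local median CRY1 was at 0.33 with an adjusted p of 0.224.

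CRY2 (ENSG00000121671, chromosome 11, 45847118 to 45883248, plus strand), the second cryptochrome, had 3.72, 3.08 and 3.12 FPKM in Vector and 2.58, 3.58 and 2.86 FPKM in OE-MMP28. The groups overlapped, with OE-MMP28 replicate 2 above 2 of the Vector libraries. The log2 fold change was -0.13 (SE 0.18, adjusted p = 0.664, edgeR). The ratio of CRY1 to CRY2 FPKM was 1.51, 1.42 and 1.35 in Vector and 3.12, 2.01 and 2.03 in OE-MMP28.

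The PER genes encode the scaffold proteins of the repressor complex, whose build-up and decay time the cycle. PER2 (ENSG00000132326, chromosome 2, 238244038 to 238290102, minus strand) had 2.90, 3.16 and 3.03 FPKM in Vector and 1.77, 2.01 and 2.06 FPKM in OE-MMP28. Both groups were tight and well apart. PER2 fell 1.55-fold (log2 fold change -0.63, SE 0.18, adjusted p = 0.0134, edgeR). It was at -0.63 without Vector replicate 3 (adjusted p = 0.0511) and at -0.67 without OE-MMP28 replicate 2 (adjusted p = 0.0503). The local median around PER2 was -0.32, and with the local-median offset PER2 was at -0.31 with an adjusted p of 0.257.

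PER1 (ENSG00000179094, chromosome 17, 8140472 to 8156506, minus strand), the PER gene that glucocorticoid and cyclic AMP induce at once, had 1.72, 2.03 and 1.88 FPKM in Vector and 0.930, 1.18 and 1.68 FPKM in OE-MMP28. OE-MMP28 replicate 3 nearly reached the Vector range, whereas the other two did not. The log2 fold change was -0.55 (SE 0.22, adjusted p = 0.0774, edgeR), and without OE-MMP28 replicate 3 it was -0.82 with an adjusted p of 0.0228. PER3 (ENSG00000049246, chromosome 1, 7784320 to 7845177, plus strand), which is dispensable for rhythms in mice, had 4.23, 4.42 and 4.23 FPKM in Vector and 4.03, 3.57 and 3.41 FPKM in OE-MMP28. The groups did not overlap but lay close, with a log2 fold change of -0.22 (SE 0.16, adjusted p = 0.340, edgeR). UTS2 and Z98884.1 on the other strand cover 10.7% and 5.95% of the exon length of PER3, with at most 2 and 15 counts in a library.

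The REV-ERB receptors link the loop to ARNTL and to lipid metabolism. NR1D1 (ENSG00000126368, chromosome 17, 40092787 to 40100725, minus strand), REV-ERB alpha, had 6.54, 6.06 and 8.05 FPKM in Vector and 4.45, 3.66 and 5.36 FPKM in OE-MMP28. All OE-MMP28 libraries were lower. NR1D1 fell 1.52-fold (log2 fold change -0.60, SE 0.20, adjusted p = 0.0296, edgeR), and it was at -0.47 without Vector replicate 3 (adjusted p = 0.175), -0.60 without OE-MMP28 replicate 1 (adjusted p = 0.0568) and -0.49 without OE-MMP28 replicate 2 (adjusted p = 0.168). THRA, the thyroid hormone receptor gene on the other strand, covers 9.49% of the exon length of NR1D1 and had a log2 fold change of 0.082 (adjusted p = 0.750).

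NR1D2 (ENSG00000174738, chromosome 3, 23945260 to 23980618, plus strand), REV-ERB beta, had 8.56, 6.52 and 9.65 FPKM in Vector and 7.27, 5.82 and 3.92 FPKM in OE-MMP28. OE-MMP28 replicate 1 was above Vector replicate 2, and the groups overlapped. The log2 fold change was -0.53 (SE 0.20, adjusted p = 0.0586, edgeR). It passed the test in 8 of 18 alternative fits, among them without Vector replicate 2 (-0.68, adjusted p = 0.0132) and without OE-MMP28 replicate 1 (-0.76, adjusted p = 0.0174).

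DBP (ENSG00000105516, chromosome 19, 48630030 to 48637438, minus strand), an activator of the PAR bZIP family that acts on D-boxes and is itself a direct target of CLOCK and BMAL1, differed most among the 10 genes. It had 0.890, 1.81 and 1.503 FPKM in Vector and 0.618, 0.559 and 0.727 FPKM in OE-MMP28, from 58 to 160 counts. Vector replicate 1 was the lowest of its group and still above every OE-MMP28 library. DBP fell 2.18-fold (log2 fold change -1.13, SE 0.26, adjusted p = 0.00441, edgeR), and 6.59% of all genes tested had a larger absolute log2 fold change. The call was kept in all 6 fits that left out 1 library, with log2 fold changes from -1.37 to -0.90. On log2(FPKM + 1) with limma, DBP was at -0.54 with an adjusted p of 0.0852. SPHK2, a sphingosine kinase gene on the other strand that covers 10.1% of the exon length of DBP, rose by 0.65 on the log2 scale (adjusted p = 0.0276). The length used for DBP, 6544 bases, is 88.3% of the gene's span, so introns are counted in its FPKM.

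**Figure D2:**
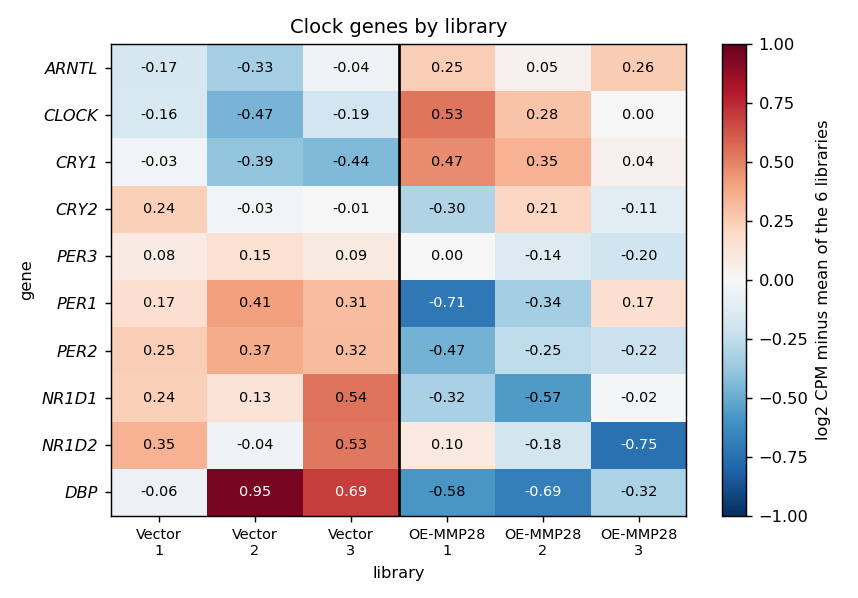
Log2 CPM of each clock gene (rows) in each library (columns) minus the mean of the 6 libraries, scaled by TMM. ARNTL and CRY1 are above 0 in the OE-MMP28 libraries and below 0 in the Vector libraries, CLOCK likewise but for OE-MMP28 replicate 3 at about the mean, PER2 and NR1D1 show the opposite, and DBP spans from 0.95 in Vector replicate 2 to -0.69 in OE-MMP28 replicate 2.

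Set side by side, the 3 members known for ROR elements (ARNTL, CLOCK and CRY1) had log2 fold changes from 0.37 to 0.58. The other 7 members, known as E-box targets (PER1, PER2, PER3, CRY2, NR1D1, NR1D2 and DBP), had log2 fold changes from -1.13 to -0.13. This grouping was made with the values known, and CRY1 is known as a target of both elements, so with CRY1 the E-box targets ranged from -1.13 to 0.58. The ratio of ARNTL to NR1D1 FPKM, a pair that peaks at opposite times, was 0.348, 0.334 and 0.307 in Vector and 0.689, 0.709 and 0.561 in OE-MMP28. The ratio of CRY1 to PER2 FPKM was 1.94, 1.38 and 1.39 in Vector and 4.56, 3.58 and 2.83 in OE-MMP28. The genes of each pair were chosen because they differed in opposite directions without overlap, so the ratios could not overlap either and describe the size only. The hour at which the cells were lysed is not given in the labels or the study's methods, and its part in these differences was not tested.

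The order of levels differed between the groups. In Vector, NR1D2 (8.25 FPKM) and NR1D1 (6.88 FPKM) stood above CLOCK (5.54 FPKM) and CRY1 (4.73 FPKM). In OE-MMP28, CLOCK (8.09 FPKM) and CRY1 (7.02 FPKM) stood above NR1D2 (5.67 FPKM) and NR1D1 (4.49 FPKM). By FPKM, DBP was lowest in both, with 1.40 and 0.635 FPKM, below PER1 with 1.88 and 1.26 FPKM. The length used for DBP, 88.3% of its span, takes in introns and can lower its FPKM, so its rank depends on that length. In counts per library, DBP had 58 to 160 and PER1 103 to 198. Of the 9 pairs of neighbours in the order, 6 overlapped between libraries in Vector and 6 in OE-MMP28. The pairs that did not overlap were NR1D1 and CLOCK, PER3 and CRY2, and PER2 and ARNTL in Vector. In OE-MMP28 they were ARNTL and PER2, PER2 and PER1, and PER1 and DBP.

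**Figure D3:**
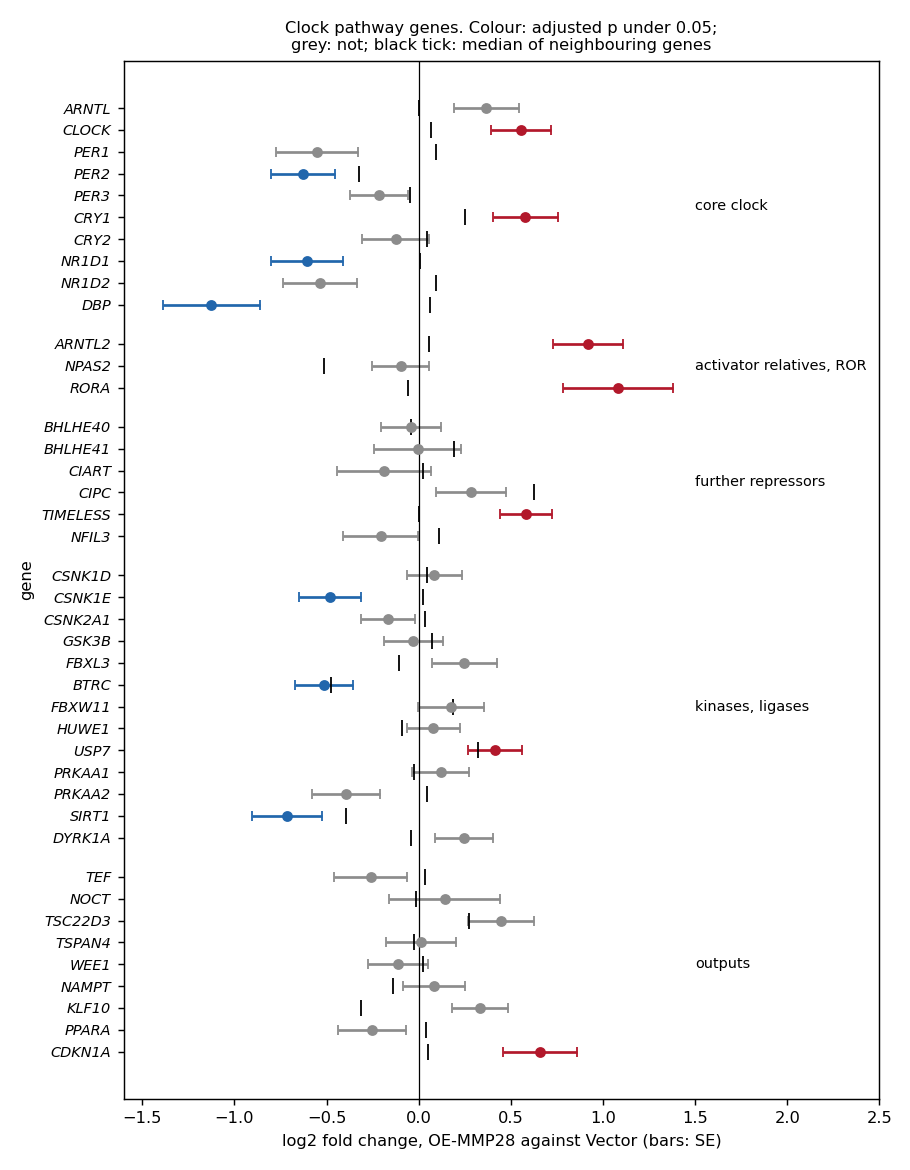
Log2 fold change (horizontal axis, OE-MMP28 against Vector, bars SE) of the clock genes and of the other tested genes of the pathway, by role, in red or blue where the adjusted p was under 0.05, with the local median as a black tick. ARNTL2 and RORA lie furthest to the right at 0.92 and 1.08, DBP furthest to the left at -1.13, and BTRC lies on its local median.

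The other genes of the pathway comprised 37 genes, of which 31 were tested, 5 rose and 3 fell, a share near the 23.4% of all genes called (11.7% higher and 11.6% lower). Among the relatives of the activators and the ROR receptors, 2 of 3 tested genes rose. ARNTL2 (BMAL2), which can replace BMAL1 as the partner of CLOCK, had 6.71, 3.92 and 4.34 FPKM in Vector and 10.6, 9.76 and 7.81 FPKM in OE-MMP28. It rose 1.89-fold (log2 fold change 0.92, SE 0.19, adjusted p = 0.00178, edgeR), with no overlap. RORA, the receptor that opposes the REV-ERB proteins on ROR elements, rose 2.12-fold from a low level, with 32, 28 and 21 counts in Vector and 66, 62 and 62 in OE-MMP28 (adjusted p = 0.0125). It was at 0.92 without Vector replicate 3 (adjusted p = 0.0773) and at 1.07 without OE-MMP28 replicate 2 (adjusted p = 0.0513). NPAS2, the paralogue of CLOCK, was at -0.10 (adjusted p = 0.694), and RORB had at most 1 count per library and was not tested.

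Of 6 further transcriptional repressors, TIMELESS, which in mammals mainly serves DNA replication, rose from 17.4, 16.1 and 17.7 FPKM to 24.6, 26.0 and 25.4 FPKM (log2 fold change 0.58, SE 0.14, adjusted p = 0.00550). The others did not pass the test. BHLHE40 and BHLHE41 (DEC1 and DEC2), which compete for E-boxes, had log2 fold changes of -0.042 and -0.0056, and CIART (CHRONO) had -0.19. NFIL3, which competes with DBP for D-boxes, had -0.21, and CIPC had 0.28. TEF, a PAR bZIP relative of DBP, had -0.26 with an adjusted p of 0.368. Of the other genes, 4 were taken as E-box targets (TEF, CIART, BHLHE40 and BHLHE41) and 2 as ROR-element genes (NPAS2 and NFIL3). They lay between -0.26 and -0.0056, and none passed the test. The remaining clock-controlled outputs were not sorted by element, so any E-box targets among them were not counted here. The 9 tested outputs, TEF among them, ranged from -0.26 to 0.66 (median 0.081), with NAMPT at 0.081 and WEE1 at -0.11.

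Among 13 tested kinases, ubiquitin ligases and deacetylases that act on clock proteins, 3 fell and 1 rose, where 23.4% of all genes were called. CSNK1E, the casein kinase that marks PER proteins for decay, was at -0.48 (adjusted p = 0.0452), BTRC, the ligase subunit that reads that mark, at -0.51 (adjusted p = 0.0233), and SIRT1, a deacetylase, at -0.72 (adjusted p = 0.00933). USP7, a deubiquitinase of CRY proteins, was at 0.41 (adjusted p = 0.0463). With the local-median offset BTRC was at -0.038 (adjusted p = 0.904), SIRT1 at -0.32 (adjusted p = 0.271) and USP7 at 0.094 (adjusted p = 0.719). With 1 library left out, CSNK1E passed only without Vector replicate 2 or OE-MMP28 replicate 3, BTRC only without replicate 1 of either group, and SIRT1 in all fits but that without OE-MMP28 replicate 2. In that fit, which called the fewest genes of the 6 that left out 1 library, CSNK1E was at -0.49 (adjusted p = 0.138), BTRC at -0.49 (adjusted p = 0.115), SIRT1 at -0.66 (adjusted p = 0.0613) and USP7 at 0.41 (adjusted p = 0.138). USP7 passed in 4 of 18 alternative fits, and its adjusted p was 0.0526 with the replicate number as a block, 0.0574 with DESeq2 size factors, 0.0709 with upper-quartile scaling and 0.0745 without the filter on low counts. CSNK1D, the close relative of CSNK1E, was at 0.084 and did not pass. Of 9 tested outputs, CDKN1A, a cell cycle inhibitor, rose 1.58-fold (adjusted p = 0.0229, and 0.063 to 0.132 without replicate 2 or 3 of either group), and 8 did not pass, among them WEE1 and NAMPT.

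Genes that respond to cues known to set the clock were compared next. Of 5 tested glucocorticoid-responsive genes, FKBP5, SGK1 and DUSP1 rose, with log2 fold changes of 0.66, 0.98 and 0.65 (adjusted p = 0.00834, 0.000591 and 0.00873), while TSC22D3 was at 0.45 (adjusted p = 0.0782) and PER1 was at -0.55. By the test 3 of the 5 rose and 0 fell, where 11.7% and 11.6% of all genes did. The groups did not overlap for any of the 5, whereas they did not overlap for 38.1% of all genes tested. The adjusted p of DUSP1 was 0.0839 without Vector replicate 3. Of 9 tested genes of the CREB and serum response, FOS and FOSB, immediate-early factors, rose by 0.85 and 0.90 on the log2 scale together with DUSP1, which is on both lists. NR4A2 and CREM fell by 1.01 and 0.88. The 4 that did not pass were EGR1 at 0.38, ATF3 at 0.49, NR4A1 at 0.074 and SIK1 at -1.27, SIK1 with at most 20 counts in a library. The list was not split into cyclic AMP and serum targets. Thus 3 of the 9 rose and 2 fell, where 23.4% of all genes were called in either direction. For neither list was the difference from the share of all genes tested, and the lists were chosen with earlier results known. With the local-median offset FOS was at 0.22 (adjusted p = 0.492), NR4A2 at -0.39 (adjusted p = 0.0983) and CREM at -0.28 (adjusted p = 0.375). Of 9 temperature-responsive genes, the chaperone genes HSPA8 and HSP90AA1 rose by 0.60 and 0.90, and 0 fell. Among all genes 11.7% rose and 11.6% fell, and the difference was not tested. The other chaperone genes did not pass, with HSPA1A at -0.026, HSPA1B at -0.27, HSPH1 at 0.093 and DNAJB1 at 0.20, and CIRBP and RBM3, which cold induces, were at 0.23 and 0.36 without passing. With the local-median offset HSPA8 and HSP90AA1 were at 0.065 and 0.38 (adjusted p = 0.836 and 0.223), and the adjusted p of HSPA8 was between 0.0614 and 0.0659 without Vector replicate 3, OE-MMP28 replicate 1 or OE-MMP28 replicate 2. The part of these cues in the values of the clock genes was not tested.

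**Figure D4:**
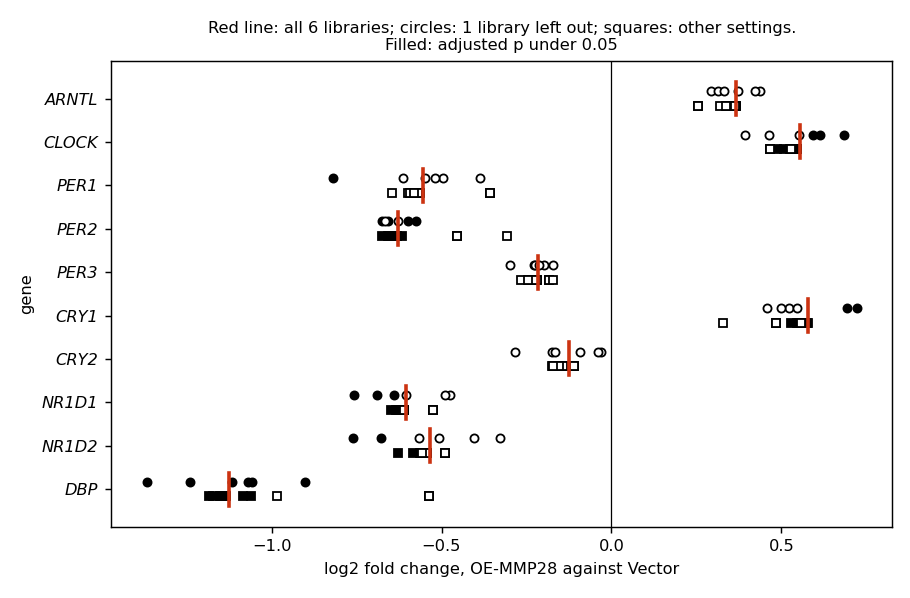
Log2 fold change of each clock gene (OE-MMP28 against Vector) with all 6 libraries (red line), with 1 library left out (circles) and under the other settings (squares), filled where the adjusted p was under 0.05. No symbol crosses 0, while filled and open symbols are mixed for CLOCK, PER1, PER2, CRY1, NR1D1, NR1D2 and DBP. PER1 passed in 2 of 18 alternative fits and DBP in 15 of 18, and ARNTL, PER3 and CRY2 passed in 0.

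Directions of the 10 clock genes were the same in all 180 alternative fits, 18 per gene, whereas their calls were not, and 143 of these fits lay on the same side of the threshold. All of these fits reuse the same 6 libraries, or 5 of them, and are not independent. Without OE-MMP28 replicate 2, 1 clock gene was called lower (DBP) and none higher by edgeR, although 2 were higher and 4 lower at an unadjusted p under 0.05. The study's own criteria were an absolute log2 fold change above 1 and a p under 0.05, taken as unadjusted. In the edgeR fit DBP alone met them, among the 5.05% of all genes that were lower by them. No clock gene was among the 3.45% that were higher (8.5% in either direction). The study names limma for its own test. With limma, DBP was at -0.54 on log2(FPKM + 1), -0.98 on log2(FPKM + 0.1) and -1.06 in limma voom.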

How the data were processed

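AsPC-1 RNA was sequenced in 3 Vector and 3 OE-MMP28 libraries, grouped by the sample titles. The authors deposited read counts per gene as whole numbers, neither normalized nor pooled, and FPKM values, whose implied library totals differed from the summed counts by -2.01% to 2.02%. HISAT2 2.0.5 and featureCounts 1.5.0-p3 are named in the submitters' processing notes; their options, among them strand, are not given in the sources used here, so reads of overlapping genes cannot be told apart. The deposited columns of the authors' own comparison (group means, fold changes and p-values) were not used. Gene length was used as deposited, and all 58735 coordinates matched GENCODE release 29 (GRCh38), which is not stated for these files.

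Counts were tested with edgeR 4.0.16 in R 4.3.3 (filterByExpr with a minimum count of 10 and total of 15, TMM, quasi-likelihood, group as the only term), with Benjamini-Hochberg adjustment over 15319 genes. The SE is the log2 fold change over the root of F. A count of 0 allows 3 counts, or 0.180 to 0.220 CPM, for counting error only. Alternatives were run with DESeq2 1.42.0 and limma 3.58.1, the latter on log2(FPKM + 1) or log2(FPKM + 0.1), kept at a mean of 0.5 FPKM, and scripts were tested on simulated data. Named were the clock genes, MMP28, the activator relatives, the ROR receptors and further repressors, some of the genes overlapping a member, and genes of the other lists with an adjusted p under 0.05, except 1 gene that is not reported here. Genes outside this rule (KRT7, KRT8, KRT18, EPCAM, PTPRC, COL1A2, CSNK1D, WEE1, NAMPT, TEF, TSC22D3, EGR1, ATF3, NR4A1, SIK1, CIRBP, RBM3, HSPA1A, HSPA1B, HSPH1 and DNAJB1) were chosen after their values were seen. The members and lists were chosen with earlier results of these data known. Replicate numbers were not used to pair the libraries in the main fit.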

Additional observations from a re-analysis of the deposited data

How the results depend on the processing

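MMP28 was at 0.84 (adjusted p = 0.0903) when limma was run unfiltered on log2(FPKM + 1), and from 0.69 to 1.05 with 1 library left out. Over all genes, 1795 were called higher and 1784 lower by edgeR. These counts were 1009 and 965 in limma on log2(FPKM + 1), 1000 and 970 on log2(FPKM + 0.1), and 362 and 308 without a filter. The edgeR fit gave 528 and 774 at the study's thresholds, which the study applied with limma, so these are not its own counts. With the local-median offset 1136 were higher. With 1 library left out the edgeR counts at an adjusted p under 0.05 ranged from 985 to 1916 and from 1044 to 1949. They were lowest without OE-MMP28 replicate 2, and 1136 were higher without Vector replicate 3. Of the clock genes, 2 were called higher and 3 lower by edgeR. limma on FPKM called 0 higher with each pseudocount and filter, where 2 were at an unadjusted p under 0.05, and 1 lower with the filter or 0 without it, where 3 were. At the study's thresholds 0 were higher and 1 lower by edgeR, and with the local-median offset 1 was higher. With 1 library left out, 0 to 2 were higher and 1 to 4 lower. With the replicate number as a block 5 were lower, adding PER1 (-0.59, adjusted p = 0.0425) and NR1D2 (-0.55, adjusted p = 0.0238), and 2 were higher. Deviations of same-numbered libraries correlated by 0.017, 0.0080 and -0.088, and no Vector library correlated best with its own number. With 3 libraries per group these correlations cannot decide whether same-numbered libraries were prepared together, which the labels do not say. Of the other pathway genes, 5 higher and 3 lower became 2 and 1 in limma on log2(FPKM + 1) and on log2(FPKM + 0.1), and 1 and 0 without a filter, where 3 were lower at an unadjusted p under 0.05, and 1 was lower with the local-median offset. With 1 library left out they ranged from 2 to 5 and from 0 to 2, the 0 without OE-MMP28 replicate 2, where 4 were lower at an unadjusted p under 0.05. Opposite directions were seen for NPAS2 (0.42) and CIPC (-0.34) with the local-median offset and for BHLHE40 without Vector replicate 2 (0.12, against -0.20 without Vector replicate 1). BHLHE41 was at -0.23 without Vector replicate 3, 0.30 without Vector replicate 2, 0.083 and 0.046 without OE-MMP28 replicates 2 and 3, 0.037 with the block, 0.047 in limma voom, 0.013 in limma on log2(FPKM + 1) with or without a filter and 0.026 on log2(FPKM + 0.1). Where a setting changed a call, the cause was not tested. Fits with a replicate left out of a group rest on 5 libraries. No scaling moved the median of all genes by over 0.1 on the log2 scale, and DBP and PER1 had the fewest counts of the clock genes.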

Other observations

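The clock genes differed in how closely the libraries of a group resembled each other. The SD of log2 CPM within groups was lowest for PER3 (0.077) and PER2 (0.11) and highest for DBP (0.39), NR1D2 (0.37) and PER1 (0.32), against a median of 0.24 over all genes tested. For PER1 the spread lay in the OE-MMP28 group (SD 0.44, against 0.12 in Vector), and for DBP in the Vector group (SD 0.52, against 0.19 in OE-MMP28), each with n = 3. Within the OE-MMP28 group, replicate 3 had the lowest log2 CPM for CLOCK, CRY1, NR1D2 and PER3 and the highest for PER1, PER2, NR1D1, DBP and, narrowly, ARNTL. Together the 10 clock genes took between 248 and 285 CPM in Vector and between 242 and 296 CPM in OE-MMP28, so their summed level overlapped between the groups.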
